A study of Mus musculus with 10 samples.

Results

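The 6 genes described here, Klhl28, Gabra2, Fam126b, Slc38a2, Mtx3 and Trp53inp1, are protein coding genes that were picked because their RNA was higher in a control IgG precipitate than in the input of embryonic mouse cortex. They are 6 of 22180 genes measured by a probe set annotated with 1 symbol, and 6 of the 18984 of these that the reference gene table lists as protein coding. Each is measured by 1 probe set, so no choice between probe sets was needed. The IgG and input values chose them. Their differences between IgG and input are therefore given as a description without a test.

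The tissue is cortex dissected from CD1 embryos of age E12-13, and the platform is the Affymetrix Mouse Gene 2.0 ST array. All samples are of this 1 strain and age, and no genotype or treatment separates them. The groups are total RNA taken as input (4 arrays, numbered 1 to 4), the RNA that came down with 4E-T antibody (3 arrays, numbered 1 to 3) and the RNA that came down with IgG (3 arrays, numbered 2 to 4). Biological replicates are stated in the design, 3 per group, whereas the labels list 4 inputs.

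RNA immunoprecipitation recovers a protein together with the RNA bound to it. An IgG precipitate shows which RNA is recovered without an antibody against the protein of interest, and so serves as the background of the method. 4E-T, the product of Eif4enif1, is a partner of the cap-binding factor eIF4E, keeps bound mRNAs from being translated and is found in P-bodies. Values are RMA log2 levels, on which a difference of 1 is a doubling, and the normalization makes them relative to all other RNA on an array. How much RNA each antibody brought down in total cannot be read from them, and fewer cells containing an RNA cannot be told apart from less of it per cell.

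The 6 genes encode proteins with unrelated roles. Gabra2 encodes a subunit of the GABA-A receptor, a ligand-gated chloride channel, and Slc38a2 encodes a sodium-coupled transporter of neutral amino acids. Fam126b encodes a relative of hyccin, a component of the complex that holds the lipid kinase PI4KA at the plasma membrane. Klhl28 belongs to the BTB-kelch family, many members of which bring substrates to the Cul3 ubiquitin ligase. Trp53inp1 is a target of p53 whose product takes part in stress responses and autophagy. Mtx3 encodes a metaxin, a protein of the mitochondrial outer membrane.

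Input 1 and 4E-T 1 lay on a lower scale than the other 8 arrays, with medians over all probe sets of 3.54 and 3.52 against 4.33 to 4.54. No IgG array belongs to this pair, which also is the whole of number 1, so scale and number cannot be told apart. The fit therefore carried the pair as a term beside group, and values of these 2 arrays are to be read against each other. In that fit limma called 4274 genes between 4E-T and input (54.0% of them higher in 4E-T), 2326 between 4E-T and IgG (72.1% higher in 4E-T) and 3688 between IgG and input (36.9% higher in IgG), at an adjusted p under 0.05. With group alone the shares were 41.7%, 52.5% and 26.7%, and with arrays centred on their medians 69.6%, 92.8% and 12.1%. The median over all genes of 4E-T over IgG was 0.03 in the fit with the pair as a term, -0.19 with group alone, 0.25 with centred arrays and 0.14 after joint quantile normalization.

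All 6 mRNAs stood higher in both precipitates than in input. Of the 6, limma called all 6 higher in 4E-T than in input, beside 10.4% of all genes called in that direction and 19.3% called in either. With group alone 3 were called, and 4 with the 8 arrays of the upper scale, with centred arrays or after joint quantile normalization. Their median difference was 1.16, beside 0.04 over all genes. The rise over input in the IgG precipitate ranged from 1.23 to 1.67 and in the 4E-T precipitate from 0.42 to 1.55. Between the precipitates, Mtx3 and Trp53inp1 were called lower with 4E-T, beside 2.92% of all genes called lower and 7.57% called higher, and the other 4 were not called. The median of the 6 there was -0.39, beside 0.03 over all genes. Both comparisons of 4E-T share arrays with the choice of the genes (the input arrays in one, the IgG arrays in the other), so their p-values are not independent of that choice. A choice for high IgG and low input values by itself favours a lower 4E-T minus IgG and a higher 4E-T minus input.

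On the 8 arrays of the upper scale both precipitates stood clear of input for all 6 genes. That held for 25.5% of all genes in 4E-T over input (20.2% stood clear below it) and for 14.3% in IgG over input, the contrast that chose the 6. Klhl28, Gabra2, Mtx3 and Trp53inp1 lay lower in 4E-T than in every IgG array, as did 15.1% of all genes. Fam126b lay higher in 4E-T than in every IgG array, by 0.0042 at the closest, as did 23% of all genes, and Slc38a2 overlapped.

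**Figure D1:**
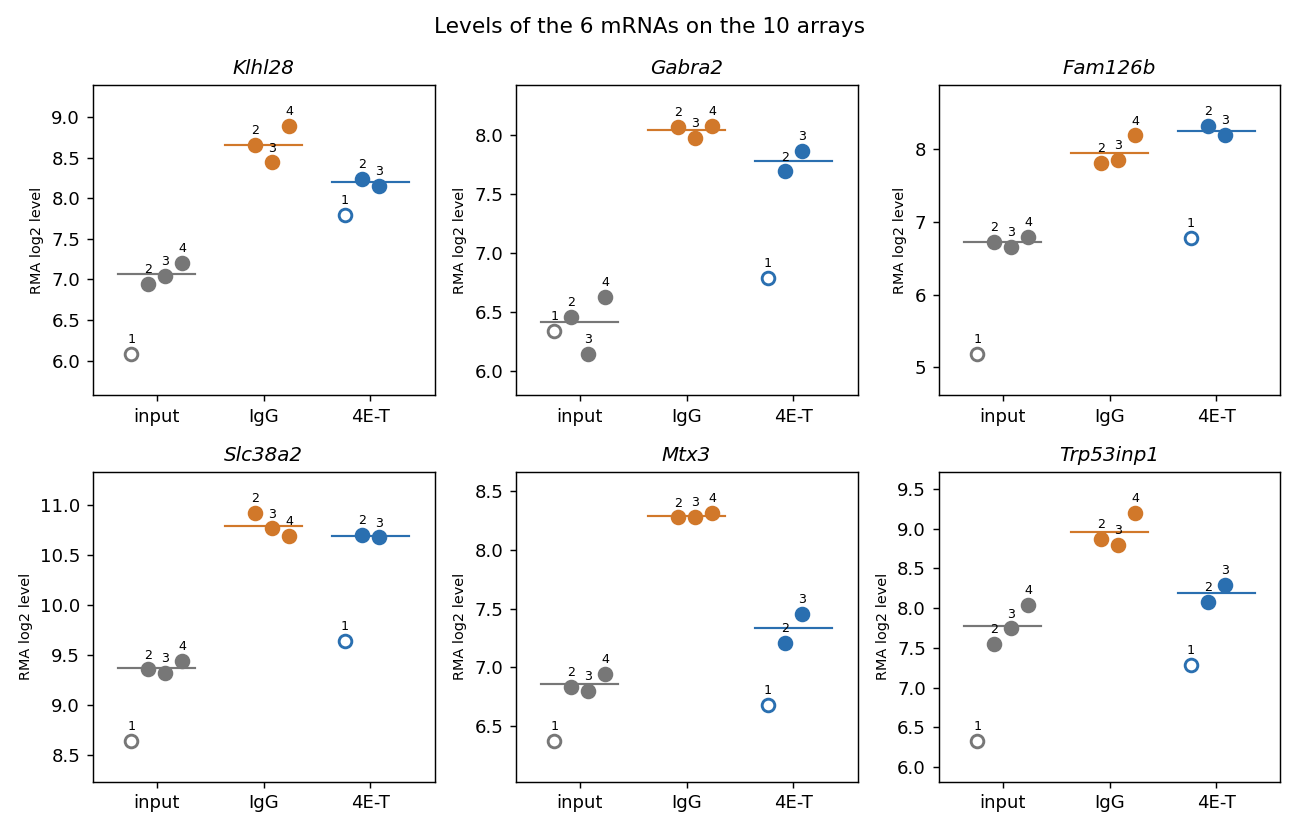
RMA log2 level (vertical axis) of each of the 6 mRNAs on the 4 input, 3 IgG and 3 4E-T arrays, with the array number beside each point. Open points are input 1 and 4E-T 1, which lie on a lower scale, and lines are the means of the filled points. On the filled points every precipitate value lies above every input value, and Mtx3 in 4E-T sits near input (7.21 and 7.46 against 6.79 to 6.94) while in IgG it lies between 8.28 and 8.32.

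The receptor subunit gene Gabra2 read 6.34, 6.46, 6.14 and 6.62 on inputs 1 to 4, 8.07, 7.97 and 8.08 on IgG 2 to 4, and 6.78, 7.69 and 7.86 on 4E-T 1 to 3. The IgG arrays lie highest and input lowest. None of the 3 groups overlap on the 8 arrays of the upper scale, for which pairwise shares of all genes are given above. Gabra2 was higher by 1.52 ± 0.19 (SE of the fit, as for all differences here, a 2.87-fold rise) in IgG than in input. In 4E-T it was higher than in input by 1.10 ± 0.19 (2.14-fold, limma adjusted p = 0.00151). The rise of 4E-T over input differed between numbers, at 0.45, 1.23 and 1.72 for numbers 1, 2 and 3. In log2 level input 1 lay within the range of the other inputs, although it is on the lower scale. In its percentile among all genes on the array it stood above them (73.7 against 66.1 to 71.3). 4E-T minus IgG was -0.42 ± 0.21 (95% interval -0.88 to 0.03, adjusted p = 0.249), and was not called.

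Slc38a2, the amino acid transporter gene, read 8.64, 9.36, 9.32 and 9.44 on inputs 1 to 4. It reached 10.93, 10.77 and 10.69 on IgG 2 to 4 and 9.64, 10.71 and 10.68 on 4E-T 1 to 3. The precipitates lie above all inputs, and 4E-T 2 and 3 fall within the spread of IgG or just below it. The difference of IgG from input was 1.39 ± 0.13 and that of 4E-T from input 1.22 ± 0.13 (2.61-fold and 2.34-fold, the latter with an adjusted p of 0.000108). Between the precipitates it was -0.16 ± 0.14, with a 95% interval from -0.47 to 0.15 (adjusted p = 0.572). It was not called.

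Fam126b, the relative of hyccin, had the most even rise of the 6 over input in the 4E-T precipitate when arrays of the same number were compared. Its levels were 5.19, 6.73, 6.65 and 6.80 on inputs 1 to 4, 7.81, 7.85 and 8.19 on IgG 2 to 4, and 6.78, 8.32 and 8.19 on 4E-T 1 to 3. Input 1 lies far below the other inputs, and 4E-T 1 lies likewise below the other 4E-T arrays, so 4E-T 1 overlaps inputs 2 to 4. Within numbers 1, 2 and 3 the rise over input was 1.59, 1.59 and 1.54, although whether the numbers pair the samples is not settled. The fitted rise was 1.55 ± 0.13 in 4E-T (2.92-fold, adjusted p = 5.09e-05) and 1.23 ± 0.14 in IgG. It was the only one of the 6 that read higher in 4E-T than in IgG, by 0.32 ± 0.15 (95% interval -0.01 to 0.64, adjusted p = 0.228), which was not called. That sign turned with group alone (-0.19) and after joint quantile normalization (-0.089). With group alone the rise of 4E-T over input was 1.42 and was no longer called (adjusted p = 0.0745).

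Klhl28, the BTB-kelch gene, had the largest difference of the 6 between IgG and input, 1.67 ± 0.16 (3.17-fold). Its levels were 6.08, 6.95, 7.04 and 7.20 on inputs 1 to 4, 8.65, 8.44 and 8.89 on IgG 2 to 4, and 7.79, 8.24 and 8.15 on 4E-T 1 to 3. On the 8 arrays of the upper scale, for which pairwise shares of all genes are given above, the groups do not overlap. Input lies lowest and IgG highest. In 4E-T it stood 1.30 ± 0.16 above input (2.46-fold, adjusted p = 0.000237), with 1.71, 1.29 and 1.11 in numbers 1, 2 and 3. Against IgG it was at -0.37 ± 0.18 (95% interval -0.76 to 0.03, adjusted p = 0.246). Klhl28 overlaps Togaram1 in the RefSeq gene table. Togaram1 was called higher in 4E-T than in input (1.04 ± 0.16, adjusted p = 0.000670), and its difference between IgG and input was 0.47 ± 0.16 (adjusted p = 0.0670). Fam126b likewise overlaps the predicted gene Gm15834, which rose in IgG over input by 0.67 ± 0.17 (adjusted p = 0.0195). Whether probes of overlapping genes share signal was not tested.

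Trp53inp1, the p53 target, read 6.33, 7.55, 7.74 and 8.04 on inputs 1 to 4. It read 8.87, 8.80 and 9.20 on IgG 2 to 4, and 7.28, 8.08 and 8.29 on 4E-T 1 to 3. IgG stands apart from both other groups, while 4E-T 1 lies among the inputs and 4E-T 2 just above input 4. The rise over input was 1.24 ± 0.18 in IgG and 0.57 ± 0.17 in 4E-T (1.48-fold, adjusted p = 0.0370). 4E-T minus IgG was -0.68 ± 0.19 (adjusted p = 0.0462). Both calls were marginal. The call against IgG was lost with group alone (-1.07, adjusted p = 0.258) and with centred arrays (-0.63, 0.0697). It was also lost without input 2 (-0.66, 0.0666), input 3 (-0.68, 0.0693), 4E-T 2 (-0.54, 0.238), 4E-T 3 (-0.68, 0.156), IgG 2 (-0.72, 0.0615), IgG 3 (-0.76, 0.0555) or IgG 4 (-0.55, 0.116). The call against input was lost without input 1 or 4E-T 1 (0.41, adjusted p = 0.213), input 2 (0.51, 0.0988), input 3 (0.58, 0.0722) or 4E-T 3 (0.56, 0.128). It was also lost with group alone (0.47, 0.750), centred arrays (0.60, 0.0794) and joint quantile normalization (0.49, 0.266).

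Mtx3, the metaxin gene, had the largest difference between the precipitates. It read 6.37, 6.84, 6.79 and 6.94 on inputs 1 to 4, 8.28, 8.28 and 8.32 on IgG 2 to 4, and 6.68, 7.21 and 7.46 on 4E-T 1 to 3. The IgG arrays agree closely (8.29 ± 0.02, SD, n = 3) and lie at least 0.82 above the highest 4E-T array. The rise over input was 1.41 ± 0.13 in IgG (2.67-fold) and 0.42 ± 0.12 in 4E-T (1.34-fold, adjusted p = 0.0303). 4E-T minus IgG was -0.99 ± 0.14 (95% interval -1.29 to -0.69, adjusted p = 0.00133), 0.503-fold, and kept its call in every fit without 1 array (adjusted p from 0.00247 to 0.0157). The small rise over input did not: it was lost without input 1 or 4E-T 1 (0.47, adjusted p = 0.0521), input 2 (0.41, 0.0754), input 3 (0.40, 0.0810), 4E-T 2 (0.48, 0.0642) or 4E-T 3 (0.33, 0.187). It was also lost with group alone (0.38, 0.545), centred arrays (0.51, 0.0761) and joint quantile normalization (0.41, 0.0578). Its sign was positive in each number, at 0.31, 0.37 and 0.66. All these fits use arrays that chose Mtx3, so they do not test the effect of that choice.

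**Figure D2:**
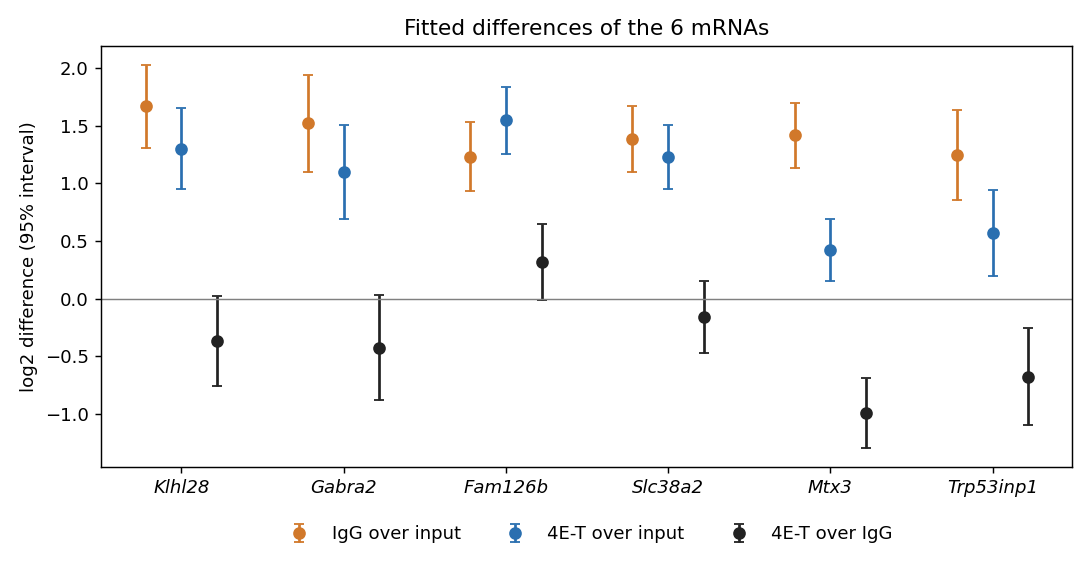
Fitted log2 differences (vertical axis) of the 6 mRNAs, with 95% intervals, for IgG over input, 4E-T over input and 4E-T over IgG. The rise over input is of similar size in both precipitates for Slc38a2 (1.39 and 1.22), and smaller with 4E-T for Mtx3 (1.41 and 0.42).

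A uniform shift of an array leaves the position of each gene among all genes on it unchanged. The 2 arrays of the lower scale could still differ in position. Fam126b stood at 60.9 on input 1 and at 72.5 to 73.5 on inputs 2 to 4, while Mtx3 stood at 74.2 and at 74.4 to 75.3. Separation of the groups in position was not counted over all genes, and nothing is read from it. Mtx3 stood at the 74.2 to 75.3 percentile on the 4 inputs, 77.3 to 80.7 on the 3 4E-T arrays and 90.2 to 91.3 on the 3 IgG arrays. Its 3 groups do not overlap, although no IgG array is of the scale of 4E-T 1. Klhl28 moved from 70.9 to 78.8 in input to 88.2 to 89.0 in 4E-T and 91.9 to 94.6 in IgG, again without overlap. Gabra2 lay at 66.1 to 73.7, 78.5 to 85.2 and 88.2 to 89.5 in the same order. Its groups are separate as well. For Fam126b (60.9 to 73.5 in input, 78.5 to 89.8 in 4E-T, 85.9 to 90.4 in IgG) and Slc38a2 (94.6 to 96.4, 98.2 to 99.4 and 99.2 to 99.5) the 2 precipitates overlap and input stands below both. For Trp53inp1 input and 4E-T overlap (73.7 to 87.6 and 83.7 to 89.6) and IgG stands above both (94.0 to 96.0).

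The level of Mtx3 minus the mean of the other 5 genes on the same array averaged -0.49 ± 0.24 in input (SD, n = 4), -0.59 ± 0.10 in IgG (n = 3) and -1.18 ± 0.21 in 4E-T (n = 3). The 4E-T arrays ranged from -1.40 to -0.98 and the other 7 from -0.69 to -0.14. This contrast was chosen after the values were seen, and it is given without a test.

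The 6 genes were not the top of the IgG precipitate as a whole. In the ranking of IgG over input they held places 24 (Klhl28), 35 (Gabra2), 44 (Mtx3), 46 (Slc38a2), 69 (Trp53inp1) and 74 (Fam126b) among all 22180 genes. Among the coding genes their places were 2, 4, 8, 9, 21 and 24, in the same order. Another 18 coding genes stood at or above Fam126b in that ranking, among them Olfr1564 at 2.10, just above Klhl28, and Zfp457 at 1.65, just below it. Next to Fam126b at 1.23 stood Gm2004 and Gpr165, also at 1.23, so that no step in the values separates it from genes outside the 6. Of these 18, limma called 16 higher in IgG than in input (beside 6.14% of all genes), 8 higher with 4E-T compared with input, and 11 lower with 4E-T compared with IgG. Both the 6 and the 18 were ranked on arrays that enter these comparisons, and nothing is read from the counts.

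In the ranking of 4E-T over input, places among the coding genes were 66 for Fam126b, 160 for Klhl28, 209 for Slc38a2, 331 for Gabra2, 2003 for Trp53inp1 and 2910 for Mtx3. In 4E-T over IgG, Mtx3 was at place 18912 and Trp53inp1 at 18656 of 18984, near the lower end, while Fam126b was at 4468.

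**Figure D3:**
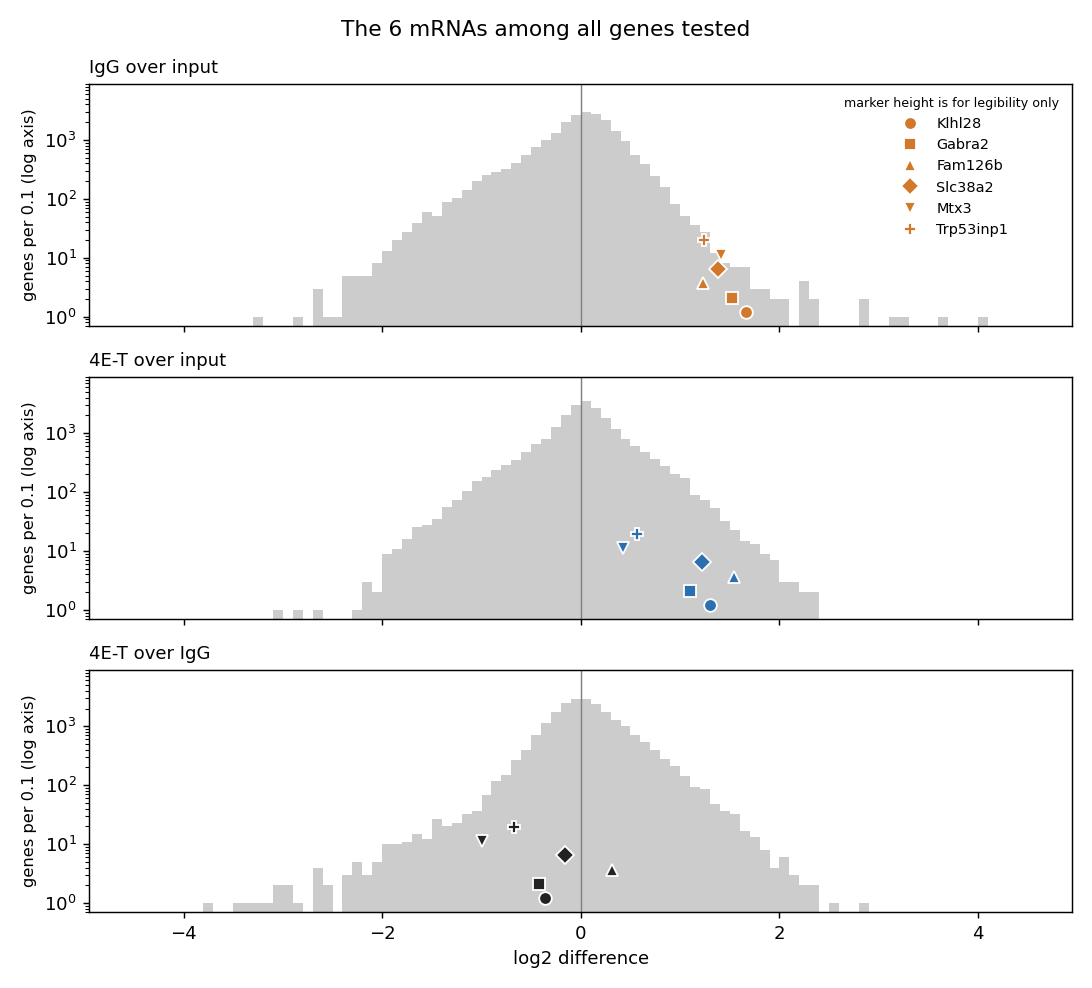
Histograms of the log2 differences (horizontal axis) of all 22180 genes, in bins of 0.1 on a log count axis, with the 6 mRNAs marked (height of a mark has no meaning). The marks lie in the upper tail for IgG over input, where they were chosen (1.23 to 1.67), between 0.42 and 1.55 for 4E-T over input, and between -0.99 and 0.32 for 4E-T over IgG.

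The closest relatives of the 6 genes are given beside them. The metaxin genes Mtx1 and Mtx2 fell in 4E-T against input, with differences of -0.75 ± 0.14 (limma adjusted p = 0.00247) and -0.87 ± 0.22 (0.0135), where Mtx3 was called higher. Mtx1 was also lower in IgG than in input, at -0.97 ± 0.14 (adjusted p = 0.000766), while Mtx2 there was at -0.40 ± 0.22 (0.273). The calls in 4E-T over input were lost with group alone (adjusted p = 0.0510 and 0.0641) and with centred arrays (0.0566 and 0.0838), and that of Mtx2 also without 4E-T 3 (-0.70, 0.0971). Slc38a1, a transporter of neutral amino acids like Slc38a2, rose over input by 0.43 ± 0.12 in 4E-T (0.0243) and 0.72 ± 0.12 in IgG (0.00192). Its call in 4E-T over input was lost without 4E-T 2 (0.40, 0.115), 4E-T 3 (0.40, 0.116), input 2 (0.42, 0.0611), input 3 (0.43, 0.0566) or input 4 (0.41, 0.0553). Slc38a4 was at -0.00 ± 0.17 and 0.08 ± 0.17 in the same comparisons and was not called.

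Fam126a, the gene of hyccin itself, was at 0.32 ± 0.13 in 4E-T over input (adjusted p = 0.128) and 0.27 ± 0.14 in IgG over input (0.225), and was called in neither. Trp53inp2, a gene of autophagy like Trp53inp1, was at -0.13 ± 0.19 (0.746) and 0.29 ± 0.20 (0.375). The GABA-A subunit genes Gabra3 and Gabra5 were at -0.41 ± 0.16 (0.0967) and -0.33 ± 0.28 (0.515) in 4E-T over input. Both were below 0 in IgG over input as well (-0.31 ± 0.16 and -0.42 ± 0.28), without a call. Of the BTB-kelch genes Klhl20 rose in 4E-T over input by 0.83 ± 0.21 (0.0146), which was not called without 4E-T 2 (0.78, 0.0773) or without 4E-T 3 (0.68, 0.104), and Klhl18 was at 0.04 ± 0.14 (0.907). Whether the members and these relatives differ from each other was not tested.

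The wider families and pathways are given by their counts without the 6 genes themselves. They are to be read beside the shares of all genes called higher and lower, which were 10.4% and 8.86% in 4E-T over input, 7.57% and 2.92% in 4E-T over IgG, and 6.14% and 10.5% in IgG over input. Counts under other scalings are given in the order group alone, the 8 arrays of the upper scale, centred arrays and joint quantile normalization. Of 40 other BTB-kelch and Cul3 ligase genes 5 rose in 4E-T over input, among them Enc1, an actin-binding kelch gene of the nervous system (1.14 ± 0.17, adjusted p = 0.000773), Klhl9 (0.82 ± 0.14, 0.00185) and Klhl15 (0.70 ± 0.14, 0.00407). The share of 12.5% is near that of all genes, the count was 1, 6, 5 and 5 under the other scalings, and the median of the 40 was 0.16, beside 0.04 over all genes. Klhl24, named after its values were seen, was called over input in 4E-T (0.98 ± 0.14, 0.000518) and in IgG (0.84 ± 0.14, 0.00193). Enc1 was also called higher in 4E-T than in IgG (0.70 ± 0.20, 0.0435), a call lost without input 1 or 4E-T 1 (0.64, 0.0958), input 2 (0.71, 0.0518), input 3 (0.70, 0.0642), 4E-T 2 (0.80, 0.0940), 4E-T 3 (0.68, 0.166), IgG 2 (0.58, 0.107) or IgG 3 (0.67, 0.0972). Of 16 other GABA-A receptor and scaffold genes only Gphn, the gene of the scaffold gephyrin, was called in 4E-T over input (0.55 ± 0.17, 0.0343) and in 4E-T over IgG (0.76 ± 0.19, 0.0232). The former was lost without 4E-T 2 or 3 or any 1 of inputs 2 to 4 (0.45 to 0.57, from 0.0545 to 0.186), and the latter without 4E-T 2 (0.64, 0.143), 4E-T 3 (0.70, 0.123) or IgG 3 (0.64, 0.0713).

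Of the 7 other genes of the PI4KA complex, Efr3b, a membrane anchor of the kinase, rose in 4E-T over input (0.89 ± 0.19, adjusted p = 0.00652), a call lost without 4E-T 3 (0.73, 0.0537). Of 10 other Slc38 transporters 3 rose there (1, 2, 1 and 3 under the other scalings) and 5 rose in IgG over input (1, 3, 1 and 3). Slc38a9, a lysosomal amino acid sensor, was among both (0.94 ± 0.14, 0.000699, and 0.56 ± 0.15, 0.0210). Slc38a10 was also called in both (0.47 ± 0.14, 0.0336, and 0.46 ± 0.14, 0.0496). Its call in 4E-T over input was lost with the replicate block (0.45, 0.0607) and without any 1 input of numbers 1 to 3 or any 1 4E-T array (0.41 to 0.52, from 0.0726 to 0.139). Slc38a6 was lower with 4E-T than with IgG (-0.87 ± 0.25, 0.0473). That call was lost with the replicate block (-0.80, 0.0843) and without any 1 4E-T array, IgG 3 or 4, or input 1 or 2 (-1.02 to -0.70, from 0.0710 to 0.114).

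Amino acid response genes, which are induced with Slc38a2 when amino acids are short, were called in both directions. Of 16, 4 rose and 4 fell in 4E-T over input. Those called with the 8 arrays were 2 higher and 1 lower, with centred arrays 4 and 1, and with joint quantile normalization 2 and 2. With group alone limma called none, and 2 rose and 4 fell at an unadjusted p under 0.05. Slc7a5, the light chain of a leucine transporter, rose in 4E-T over input (0.67 ± 0.14, adjusted p = 0.00646) and over IgG (0.71 ± 0.16, 0.0171). Slc3a2, its heavy chain, was called over IgG (0.79 ± 0.17, 0.0121). Slc3a2 was itself lower in IgG than in input (-0.68 ± 0.15, 0.00994) and was not called in 4E-T over input (0.11 ± 0.15, 0.734). The calls over IgG of Slc7a5 and Slc3a2 were lost without 4E-T 2 (0.65, 0.104, and 0.71, 0.0861) or 4E-T 3 (0.63, 0.111, and 0.78, 0.0669). Slc7a11, a cystine transporter gene, rose over input by 1.39 ± 0.41 (0.0325), which was not called without 4E-T 1 or 3 or any 1 of inputs 1, 2 and 4 (1.01 to 1.49, from 0.0523 to 0.200). Ddit4, an inhibitor of mTORC1 signalling, rose by 0.86 ± 0.22 (0.0141), which was not called without input 1 or 4E-T 1 (0.73, 0.0944) or without 4E-T 3 (0.66, 0.106).

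Genes of mitochondrial outer membrane import and membrane bridging are counted without Mtx3. Of these 16, 10 fell in 4E-T over input and 12 fell in IgG over input, with medians of -0.68 and -0.98. The count in 4E-T over input was 5 with group alone and with centred arrays, and 9 in the 8 arrays alone and after joint quantile normalization. In IgG over input it was 8 with group alone, 13 with centred arrays, and 12 in the 8 arrays alone and after joint quantile normalization. Tomm40l and Tomm40, channel genes of the outer membrane translocase, were called higher in 4E-T than in IgG (0.90 ± 0.18, adjusted p = 0.00795, and 0.73 ± 0.16, 0.0148), calls lost without 4E-T 2 (0.85, 0.0566, and 0.77, 0.0597) or 4E-T 3 (0.88, 0.0515, and 0.72, 0.0779). Apool, a cristae gene, fell in 4E-T over input (-0.51 ± 0.14, 0.0197). That call was lost without any 1 of inputs 1 to 3 or any 1 4E-T array (-0.54 to -0.48, from 0.0502 to 0.0889).

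Of 17 other p53 response genes, 5 rose and 1 fell in 4E-T over input, with a median of 0.23. With the 8 arrays 3 rose and 1 fell, with centred arrays and with joint quantile normalization 4 rose. With group alone limma called none, and 4 rose and 1 fell at an unadjusted p under 0.05. Mdm2, the ubiquitin ligase of p53, rose by 0.70 ± 0.16 (adjusted p = 0.00749), Sesn1 by 0.64 ± 0.14 (0.00632) and Btg2 by 0.66 ± 0.16 (0.0139), the last lost without input 1 or 4E-T 1 (0.41, 0.0872). Btg2 also rose in IgG over input (0.87 ± 0.17, 0.00397). The 1 that fell in 4E-T over input was Cdkn1a (-0.74 ± 0.20, 0.0245), which was also lower in IgG than in input (-0.93 ± 0.21, 0.0103). Plk2, a kinase gene, was called higher in 4E-T than in IgG (1.46 ± 0.33, 0.0170), but not without 4E-T 2 (1.57, 0.0575) or 4E-T 3 (1.37, 0.0943). Of 17 other autophagy genes 5 were called higher and 1 lower when 4E-T was set against IgG. With group alone limma called none, and 3 were higher and 1 lower at an unadjusted p under 0.05. In 4E-T over input 2 were higher and 4 lower, and in IgG over input 1 was higher and 6 lower. With group alone these counts were 0 and 2 in 4E-T over input, and 0 and 1 in IgG over input. Those higher in 4E-T than in IgG included Atg12 (1.57 ± 0.15, 0.000165), Gabarapl1 (1.30 ± 0.25, 0.00734), Atg14 (1.09 ± 0.25, 0.0172) and Atg7 (0.73 ± 0.16, 0.0126). The calls of Atg14 and Atg7 were lost without 4E-T 2 (1.11, 0.0754, and 0.75, 0.0618) or 4E-T 3 (1.04, 0.0941, and 0.64, 0.0913). Atg12, Gabarapl1 and Atg7 were themselves lower in IgG than in input (-0.69 ± 0.13, 0.00391, -1.32 ± 0.23, 0.00210, and -0.52 ± 0.14, 0.0274). Atg12 and Atg14 were the 2 that rose in 4E-T over input (0.88 ± 0.13, 0.000611, and 1.01 ± 0.22, 0.00695). Map1lc3a, Gabarapl2, Becn1 and Atg3 were the 4 lower there (-1.24 to -0.57). Ulk2 was the 1 lower in 4E-T than in IgG (-0.59 ± 0.16, 0.03675). In the comparisons of 4E-T, 32 calls of these relatives and paralogs were put through the alternative fits. With group alone, 30 of the 32 were lost, the exceptions being Enc1 and Slc38a9 in 4E-T over input. In the 8 arrays of the upper scale 7 were lost, which are the calls named above as lost without input 1 or 4E-T 1. With centred arrays the lost calls were those of Slc38a6 over IgG and of Gphn, Slc38a1, Slc38a10, Apool, Mtx1 and Mtx2 over input (adjusted p from 0.0566 to 0.414). After joint quantile normalization they were those of Slc7a5 over IgG and of Gphn, Slc7a5, Ddit4, Apool and Sesn1 over input (0.0528 to 0.218). For the calls of single relatives in IgG over input no alternative was run.

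**Figure D4:**
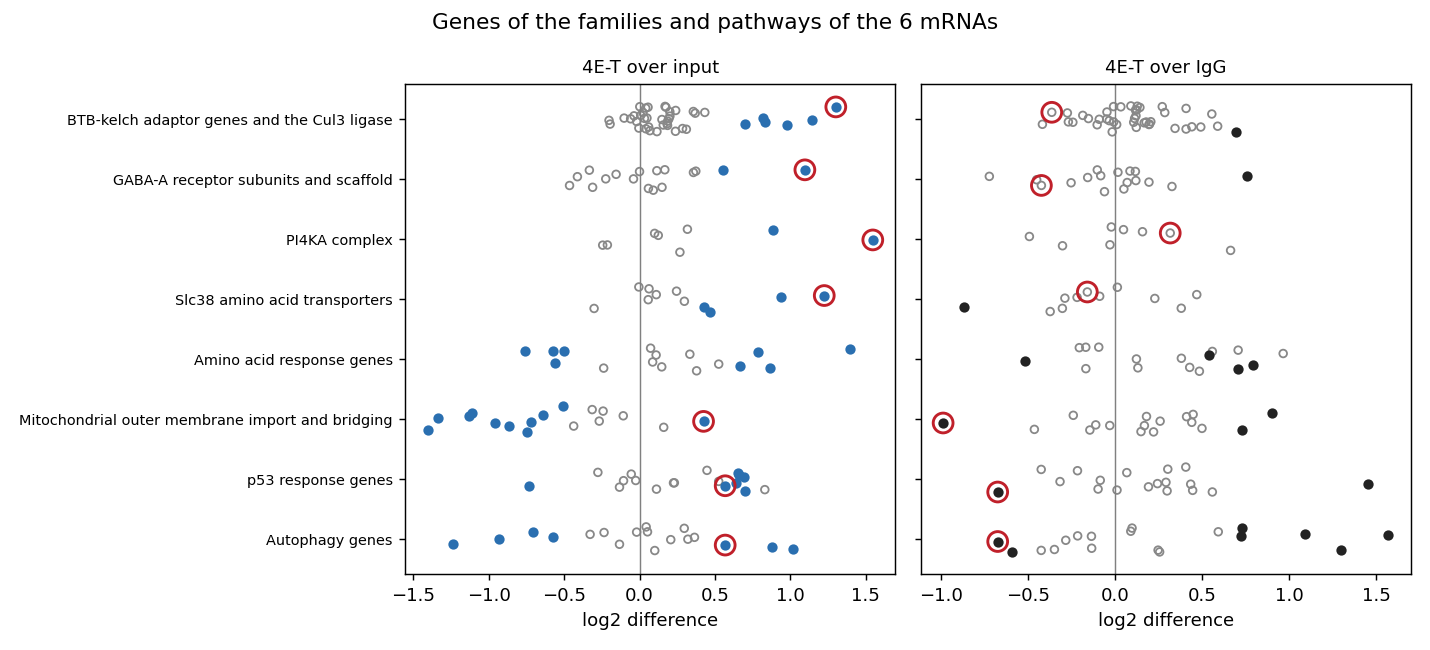
Log2 differences (horizontal axis) of 4E-T over input and 4E-T over IgG for the genes of each family or pathway, with filled points called by limma and red rings around the 6 mRNAs. Vertical scatter within a row has no meaning. In the mitochondrial row 10 of the 16 other genes are called below 0 in 4E-T over input while Mtx3 is at 0.42.

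The coding genes closest in profile to the 6 were found by the root mean square difference, over the 8 arrays of the upper scale, between the gene and the mean of the 6 after each was centred on its own mean. The closest were Nbeal1 (0.12), a BEACH domain gene, Selenoi (0.14), a phospholipid synthesis gene, Dennd5b (0.14), a Rab regulator gene, Dip2b (0.14), Srgap3 (0.15), which encodes a GTPase-activating protein, and the zinc finger gene Zfp960 (0.15). The 6 members themselves lay between 0.11 (Klhl28) and 0.28 (Fam126b) from their mean, and Mtx3 at 0.26. Nbeal1 stood 1.31 ± 0.16 above input in IgG and 0.57 ± 0.16 in 4E-T. Zfp960 stood 1.47 ± 0.20 and 1.10 ± 0.19 above input. These genes were chosen for their likeness on the same arrays, and their values carry no test.

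Cortical markers were present on all arrays of the upper scale, with mean log2 levels of 7.97 to 9.09 over 6 precursor markers and 9.31 to 9.92 over 6 markers listed as neuronal. The latter were Tubb3, Dcx, Neurod6, Tbr1, Eomes and Neurod2. Of the precursor markers 1 of 6 was called higher and 1 lower in IgG than in input (mean level 8.09 to 8.18 in IgG, 7.97 to 8.24 in input). In 4E-T 4 of 6 were higher than in input and 5 of 6 higher than in IgG, with a mean level of 8.86 to 9.09. With group alone limma called 4 over input and none over IgG, where 5 were higher at an unadjusted p under 0.05. Of 6 neuronal markers 2 were higher and 1 lower in IgG than in input, and with centred arrays none was called higher and 1 lower. Dcx, a microtubule protein gene of young neurons, was 1 of the 2 (0.89 ± 0.19, limma adjusted p = 0.00696), and Tubb3 was the 1 lower (-0.78 ± 0.18, 0.0107). In 4E-T over IgG 0 of the 6 neuronal markers were called higher and 1 lower, which was Dcx (-1.11 ± 0.21, 0.00605). The median of the 6 there was 0.15. Tbr1 was higher in 4E-T than in input (0.62 ± 0.15, 0.0112). Of 6 endothelial markers 3 were lower in IgG than in input, with mean levels of 4.43 to 4.81 against 4.89 to 5.11, and the dimmest of them was Tie1 at 4.11 in IgG. With group alone 0 of the 6 were lower in IgG than in input, also at an unadjusted p under 0.05. For 9 microglia and macrophage markers the mean level was 4.88 to 5.09 in IgG, 5.05 to 5.08 in input and 4.82 to 4.96 in 4E-T, with Fcgr3 the dimmest in IgG at 4.08. Among them Cx3cr1 was called higher than input in 4E-T (1.21 ± 0.16, adjusted p = 0.000315) and in IgG (0.71 ± 0.16, 0.00978), while C1qb (-0.70 ± 0.16, 0.00850) and Fcer1g (-0.66 ± 0.20, 0.0382) were lower in 4E-T over input. With group alone limma called none of the 9 over input, where at an unadjusted p under 0.05 there were 1 higher and 2 lower in 4E-T and 1 higher in IgG. For 6 meningeal and mesenchymal markers it was 4.31 to 5.05 in input and 4.74 to 4.95 in 4E-T, and IgG lay within the range of input. In 4E-T over input 1 of 6 endothelial markers, Kdr (1.37 ± 0.19, 0.000496), and 1 of 6 meningeal markers, Foxc1 (1.36 ± 0.13, 7.21e-05), were called, both higher. The medians of these lists there were -0.10 and -0.09, and with group alone 1 endothelial and 0 meningeal markers were called. In IgG over input Dcn was the 1 meningeal marker called, and it was lower (-1.09 ± 0.22, 0.00526). Only 2 of 6 erythroid markers were measured (9.57 to 9.99 in input, 8.80 to 9.26 in IgG, 9.17 to 9.38 in 4E-T), 1 of them called lower in IgG and in 4E-T than in input. The part of these cell types in the results of the 6 mRNAs was not tested.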

How the data were processed

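Values are the log2 levels per probe set that the authors deposited for 10 arrays. RMA and Affymetrix Expression Console are named for them in the submitters' processing notes, without a version, and RMA includes background correction and quantile normalization. Precipitation used the Magna RIP kit and amplification the NuGEN Pico protocol, per the labels' protocols. The genome build of the annotation is not given in the sources used here. Of 41345 probe sets, 23521 had 1 symbol in the platform annotation, 1814 several and 16010 no entry. The single-symbol probe set with the highest mean was kept per gene (22180 genes, 22136 matched to the RefSeq table of GRCm38.p6, used for names, gene class and overlap only).

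All 10 arrays entered one linear model (lmFit and eBayes of limma 3.58.1, R 4.3.3), with group and the pair of lower-scale arrays as terms, and a call is an adjusted p under 0.05, by Benjamini-Hochberg over all genes. Errors are standard errors of the fit with 6 residual degrees of freedom. No filter on dim genes was applied, no detection calls were used, and precision is limited by the number of arrays. In a simulation of 4E-T over IgG on 22180 genes, 100 genes were changed by 1 and 100 by 2 on the log2 scale. The fit recovered 69% and 96% of these, with 12 false calls. The simulated noise was independent between genes and arrays, and the simulated scale shift was the one in the model. These rates therefore need not hold for the measured values. Alternatives were other scalings, the 8 arrays alone, the replicate number as a block, brighter genes only, every probe set, a variance trend, and leaving out each array. Named genes are the 6, their paralogs whatever the test, up to 4 relatives per list called in either comparison of 4E-T (by size of 4E-T over IgG), the 6 genes closest in profile, and neighbours in rank. Klhl24 and the genes called lower with 4E-T in the amino acid response, p53 and autophagy lists were named in addition, without alternatives. The 6 genes, the lists, the pair term and the alternatives were chosen with earlier results of these data known. Plots come from matplotlib 3.10.9 (Python 3.11.15).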

Additional observations from a re-analysis of the deposited data

Results flagged for a closer look

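Input 1 stood apart from the other inputs for 2 of the 6 mRNAs. For Fam126b the gap from input 1 (5.19) to the next input (6.65) made up 0.911 of the range of the 4 inputs, and for Slc38a2 the gap from 8.64 to 9.32 made up 0.845, both above Dixon's 95% critical value for 4 samples. Chance alone would flag about 1 in 20 groups if all arrays were on 1 scale and the groups were independent. Input 1 is on the lower scale, with a median of 3.54 against 4.39 to 4.43 on the other inputs. The 6 groups examined share the same 4 arrays. That rate therefore does not apply, and nothing is read from the 2 flags. Without input 1, Fam126b rose in 4E-T over input by 1.53 (limma adjusted p = 0.000455) and Slc38a2 by 1.32 (0.000509).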

How the results depend on the processing

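With group alone, limma called 299 genes in 4E-T over IgG, 1361 genes in 4E-T over input and 1206 in IgG over input, and with centred arrays 2474 in 4E-T over input. Leaving out each array gave 930 to 2268, 2703 to 4679 and 2612 to 3471 genes, with the fewest in both comparisons of 4E-T without 4E-T 2 (930 and 2703) or 4E-T 3 (935 and 2707). Of the 6 mRNAs, those called in 4E-T over IgG numbered 1 with group alone or centred arrays and 1 to 2 without 1 array, and those in 4E-T over input 3 with group alone and 4 to 6 without 1 array. Fam126b turned sign in 4E-T over IgG with group alone (-0.19) and joint quantile normalization (-0.089), and in 4E-T over input it was 1.42 with group alone. Trp53inp1 in 4E-T over IgG was -1.07 with group alone, -0.63 with centred arrays and -0.77 to -0.54 without 1 array. In 4E-T over input, with group alone, the 8 arrays, centred arrays and joint quantile normalization, Mtx3 was 0.38, 0.47, 0.51 and 0.41 and Trp53inp1 0.47, 0.41, 0.60 and 0.49. Without 1 array they ranged from 0.33 to 0.48 and from 0.41 to 0.69. The cause was not tested. In IgG over input the 6 stayed between 1.11 and 1.84.

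With the replicate number as a block no call of the 6 changed, and 2454, 4510 and 4120 genes were called in 4E-T over IgG, in 4E-T over input and in IgG over input. Deviations from group means of 4E-T and input arrays of the same number correlated over genes at 0.62, 0.24 and 0.28, but at 0.04 and 0.01 for numbers 2 and 3 within the 8 arrays of the upper scale. There, IgG and input arrays of the same number correlated at 0.14, 0.09 and 0.25, and those of different numbers at -0.20 to 0.08. Whether the numbers pair the samples is thus not settled, and the fit without the block was kept. Of the calls of relatives the block ended those of Slc38a6 over IgG (-0.80, adjusted p = 0.0843) and Slc38a10 over input (0.45, 0.0607).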
